A study of Mus musculus with 16 samples.

Results

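The Fos and Jun genes encode the subunits of AP-1, a dimeric transcription factor. The family was taken as the 7 genes Fos, Fosb, Fosl1, Fosl2, Jun, Junb and Jund, found by their symbols among the 24421 genes of the tables, and each of the 7 was present. Their mRNA was measured in somatosensory cortex of mice, in 4 groups of 3 libraries. CTL-WT were undisturbed wild-type C57BL/6 mice, and SD-WT were wild-type mice after 8 h of sleep disruption (SD) by gentle handling, from ZT20 to ZT4, where ZT0 is light onset. CTL-AcPbKO and SD-AcPbKO were the same conditions in mice homozygous for loss of AcPb, a neuron-specific isoform of the interleukin-1 receptor accessory protein encoded by Il1rap. All mice were collected at ZT4, were 2 to 3 months old and came from colonies bred locally for 5 to 7 generations from males, per the labels, and the study's methods call the wild-type animals male and give their substrain as C57/BL6J.

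AP-1 binds DNA as a pair of basic leucine zipper proteins. Fos proteins do not form stable pairs with each other and typically take a Jun partner, whereas Jun proteins can also pair with themselves. ATF and MAF proteins are further possible partners. In cortical neurons, Fos, Fosb and Junb are immediate early genes, transcribed within minutes of synaptic activity and soon switched off, and the stable product of Fosb builds up when activity persists. Jund is expressed at rest and is the Jun gene least dependent on stimulation.

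The libraries held 32870075 to 41615582 reads on genes in CTL-WT, 58770286 to 71775967 in SD-WT, 26504840 to 35683409 in CTL-AcPbKO and 63413467 to 71857505 in SD-AcPbKO. The libraries of mice after SD were thus the deeper ones in both genotypes. By these groups, SD cannot be told apart from depth or from any difference between libraries that went with it. Markers of cortical excitatory neurons were present in every library. Libraries that went against a description as male were found among the controls. CTL-WT replicates 2 and 3 and CTL-AcPbKO replicates 4 and 5 held 25352 to 39358 reads of Xist, the RNA of the inactive X chromosome, with 0 reads of the Y-linked Ddx3y, while the other 8 libraries held 5 to 13 reads of Xist. Thus 4 of 6 controls and 0 of 6 libraries after SD carried the Xist and Y-linked pattern of female tissue. SD-AcPbKO replicate 4 held 370 CPM (reads scaled to the library total) of 4 choroid plexus markers, against 6.11 to 11.8 in the other 11 libraries. Markers of several lists moved with SD, where 25.4% of all genes were called in wild-type and 27.4% in knockout mice. The 7 cortical excitatory markers had 1 higher and 2 lower in wild-type and 1 higher and 1 lower in knockout mice. Thalamus and hippocampus markers had 1 of 5 higher in each genotype. Choroid plexus markers had 1 of 4 higher in wild-type and 0 in knockout mice. Of 4 oligodendrocyte markers 3 were called lower in wild-type (median log2FC -0.41) and 0 in knockout mice (-0.11), and their summed level was 2001 to 2428 CPM in CTL-WT, 1616 to 2200 in SD-WT, 995 to 2328 in CTL-AcPbKO and 1279 to 1991 in SD-AcPbKO. Of 6 striatal markers 2 were lower in wild-type and 0 in knockout mice, of 4 astrocyte markers 2 and 1, and of 4 microglia markers 0 and 2, with a microglia sum of 186 to 195 CPM in CTL-AcPbKO and 140 to 164 in SD-AcPbKO. Of 4 endothelial markers 2 were higher and 1 lower in each genotype. The part of these cell types in the SD effects was not tested. Reads of Il1rap, not scaled for depth, numbered 933 to 1360 in controls and 2314 to 2946 after SD, over both genotypes. Scaled for depth, its mean normalized count was 1497 in CTL-WT, 1825 in SD-WT, 1583 in CTL-AcPbKO and 1971 in SD-AcPbKO. As counts over the whole gene, these values are no check of the loss of 1 isoform.

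In RPKM, reads scaled by exon length and library total, the family was led by Jund, with a mean level of 58.7 over the 12 libraries (39.2 to 83.3). Junb followed at 22.1 (13.2 to 35.5), Fos at 15.9 (6.09 to 29.4) and Jun at 15.6 (10.3 to 21.0), and the ranges of these neighbouring genes overlapped. Fosl2 had a mean of 4.87 (3.53 to 5.92) and Fosb 2.92 (1.80 to 4.23) on the same scale, again with overlapping ranges. Fosl1 was hardly expressed, at 0.0564 (0.0118 to 0.109), which corresponds to 1 to 15 reads in a library. The order of Jund before Junb, of Jun before Fosl2 and of Fosb before Fosl1 held without overlap of the ranges. Overlapping annotation bears on some of these levels, and the strand setting of the counting was not stated in the sources used here. Of the 100-base stretches of the Jund exon, 43.5% also lie in Gm11175 on the other strand, and 48.3% of those of Fosl1 lie in Ccdc85b on the other strand. Gm11175 is not among the genes used here, and Ccdc85b held 1705 to 3674 reads. For Jun 4.30% of the stretches lie in Junos and for Junb 3.66% lie in Prdx2, while Fos, Fosb and Fosl2 share 0%.

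In the family, Fos and Junb were among the most variable genes of the undisturbed cortex, and the DNA upstream of them is shown because they moved together across libraries. The 250 bases before the annotated start are given 5′ to 3′ on the strand of the gene, from the RefSeq annotation of GRCm38.p6, where 6 of the 7 genes had an entry. The same stretches are given for Fosb, another immediate early member, and for Jun, which did not vary with them. The regions are chr12:85473640-85473889 (plus strand) for Fos, chr8:84978749-84978998 (minus strand) for Junb, chr7:19310046-19310295 (minus strand) for Fosb and chr4:95052223-95052472 (minus strand) for Jun. Capitals mark TGACG, the core of the cAMP response element, TATAAA, and in Jun the AP-1-like element TGACATCA.
Fos: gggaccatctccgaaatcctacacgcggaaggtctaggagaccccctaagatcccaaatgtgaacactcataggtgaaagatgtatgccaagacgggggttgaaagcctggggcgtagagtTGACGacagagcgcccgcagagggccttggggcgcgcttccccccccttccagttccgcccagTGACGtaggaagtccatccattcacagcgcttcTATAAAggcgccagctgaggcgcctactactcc
Junb: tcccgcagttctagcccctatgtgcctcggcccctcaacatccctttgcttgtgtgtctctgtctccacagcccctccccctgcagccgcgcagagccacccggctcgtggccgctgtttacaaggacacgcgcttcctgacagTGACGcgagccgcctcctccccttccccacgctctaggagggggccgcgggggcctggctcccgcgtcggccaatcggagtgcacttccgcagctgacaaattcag
Fosb: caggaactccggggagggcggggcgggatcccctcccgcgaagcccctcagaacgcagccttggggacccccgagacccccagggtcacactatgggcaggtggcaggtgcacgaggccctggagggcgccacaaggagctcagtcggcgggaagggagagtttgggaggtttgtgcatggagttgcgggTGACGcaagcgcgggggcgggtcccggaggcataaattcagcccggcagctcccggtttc
Jun: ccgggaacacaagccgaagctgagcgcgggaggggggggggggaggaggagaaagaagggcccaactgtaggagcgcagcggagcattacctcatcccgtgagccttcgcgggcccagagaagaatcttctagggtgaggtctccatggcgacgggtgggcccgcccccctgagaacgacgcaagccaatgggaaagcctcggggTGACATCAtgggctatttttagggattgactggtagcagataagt
On both strands, TGACG was found in 3 of the 6 members with an entry and in 17.8% of 32851 mouse promoters of the same length. It began 129 and 66 bases before the start in Fos, 106 in Junb and 60 in Fosb. TATAAA stood 33 bases before the start of Fos and in 12.4% of all promoters, and TGACATCA stood 45 bases before the start of Jun and in 2.93%. The canonical AP-1 site TGACTCA (4.46% of promoters) and the full element TGACGTCA (1.55%), which contains TGACG, were in 0 of the 6 windows. The CArG box bound by SRF (1.47%) was in 0 of the 6 as well. Bases further upstream than 250 were not searched, so sites there would not be seen. The RefSeq starts behind these windows match the GENCODE gene starts for Fos and Jun, and not for the other members with an entry. The Junb window reaches down to 84978749, where GENCODE starts the gene at 84978718 on the minus strand. That of Fosb reaches down to 19310046, just inside the GENCODE gene, which starts at 19310051 on the minus strand. The window of Jund, chr8:70697489-70697738, ends well before the GENCODE start at 70698949. That of Fosl2, chr5:32136222-32136471, lies inside the GENCODE gene, which starts at 32135801. Distances above are counted to the RefSeq start.

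Jund was the member that changed most reproducibly with SD. In normalized read counts, with the 12 libraries scaled together, it stood at 5683.6, 4897.4 and 4995.5 in CTL-WT replicates 1 to 3 and at 3782.1, 3413.3 and 3102.1 in SD-WT replicates 1, 2 and 4. In CTL-AcPbKO replicates 3 to 5 it stood at 6218.9, 6501.3 and 5929.9, and in SD-AcPbKO replicates 2 to 4 at 3484.5, 3813.1 and 3638.7. Every library after SD lay below every control. Jund was downregulated by SD in wild-type mice, with a log2FC of -0.60 (SE 0.08, limma, adjusted p = 0.00114), and in AcPb knockout mice, with a log2FC of -0.77 (SE 0.06, limma, adjusted p = 0.000444). These are folds of 0.660 and 0.588. The means were 5192 ± 428 in CTL-WT, 3433 ± 340 in SD-WT, 6217 ± 286 in CTL-AcPbKO and 3645 ± 164 in SD-AcPbKO (SD, n = 3). In cortex taken whole, fewer expressing cells and less mRNA in each cell cannot be told apart. Without the controls with Xist reads, in a fit that leaves 1 control in each genotype and takes its spread from the SD groups, it was -0.73 (adjusted p = 0.0451) in wild-type and -0.77 (adjusted p = 0.0260) in knockout mice.

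**Figure D1:**
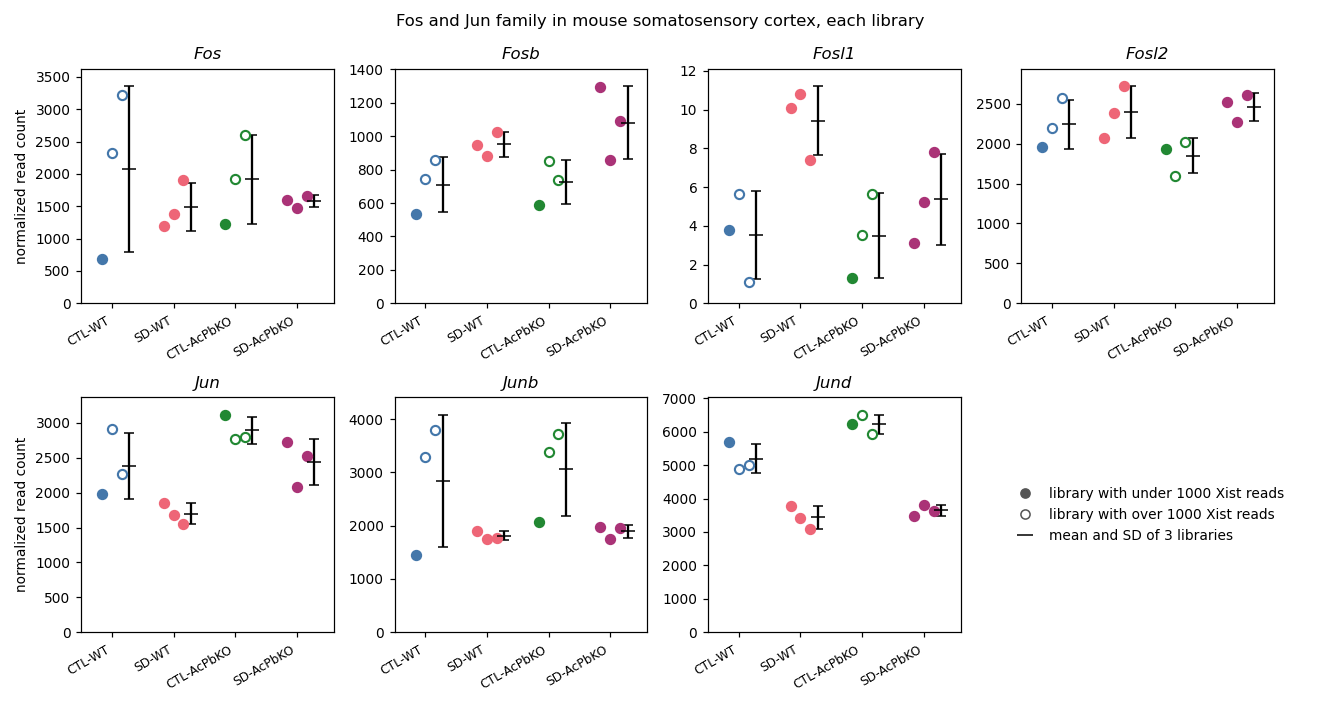
Normalized read count (y axis, from 0, all 12 libraries scaled together) of each Fos and Jun gene in the 4 groups (x axis), 1 point per library, with the mean and SD of 3 libraries as bars. Open points are the 4 controls with over 1000 Xist reads. Jund lies below every control in all 6 libraries after SD, and the lowest control of Fos, of Fosb and of Junb in each genotype is a filled point.

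In wild-type mice 3 of the 7 members passed the test after SD, 1 higher and 2 lower, against 25.4% of all 20417 genes tested, 13.2% higher and 12.2% lower. The median log2FC of the members was -0.23, against 0.00 over all genes. The groups did not overlap for 4 members, where 40.2% of all genes did not overlap. The count called was 1 without SD-WT replicate 2 and 1 without the controls with Xist reads, Jund in both cases. Besides Jund, Jun was downregulated (log2FC -0.48, SE 0.12, adjusted p = 0.0181). Jun, the founding member and the main target of JNK signaling, had normalized counts of 1982.3, 2904.3 and 2263.1 in CTL-WT and 1849.9, 1685.5 and 1555.9 in SD-WT. The 3 SD-WT values lay below the 3 controls, with CTL-WT replicate 1 closest to them. The adjusted p was 0.0584 without CTL-WT replicate 2 and 0.0638 without SD-WT replicate 2, and the log2FC was -0.23 (adjusted p = 0.437) without the controls with Xist reads.

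In AcPb knockout mice 4 of the 7 members passed the test after SD, 2 higher and 2 lower, against 27.4% of the 20574 genes tested (14.1% higher and 13.3% lower), and 5 did not overlap between groups, against 42.3% of the genes. The median log2FC of the members was -0.21, against 0.01 over all genes. The count called was 1 without SD-AcPbKO replicate 2, 1 without SD-AcPbKO replicate 4 and 1 without the controls with Xist reads, Jund each time, and 2 without CTL-AcPbKO replicate 5. Jun had counts of 3114.0, 2770.4 and 2793.0 in CTL-AcPbKO and 2729.6, 2084.2 and 2521.3 in SD-AcPbKO. The groups did not overlap, and Jun missed the threshold (log2FC -0.25, SE 0.10, adjusted p = 0.104). Junb did pass, with a log2FC of -0.65 (SE 0.19, adjusted p = 0.0351), and was called in 1 of the 6 fits that left out 1 library.

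Among the Fos genes, Fosb and Fosl2 were upregulated by SD in knockout mice, and Fosl1 in wild-type mice at few reads. Fosb, whose truncated product is known to persist after repeated activity, had counts of 532.9, 745.1 and 854.9 in CTL-WT and 944.9, 881.3 and 1026.4 in SD-WT. It had 585.8, 852.8 and 738.6 in CTL-AcPbKO and 1297.0, 858.6 and 1089.0 in SD-AcPbKO. No library after SD was below a control of its genotype, though SD-AcPbKO replicate 3 exceeded the highest control by little. Fosb was upregulated in knockout mice (log2FC 0.57, SE 0.17, adjusted p = 0.0373), and the wild-type difference was just short of the threshold (0.44, SE 0.15, adjusted p = 0.0510). With a term for the libraries with Xist reads in a fit of all 4 groups, Fosb was at 0.78 (adjusted p = 0.00586) in wild-type and 0.91 (adjusted p = 0.00163) in knockout mice. With those libraries left out it was at 0.83 (adjusted p = 0.0898) and 0.86 (adjusted p = 0.0628), called in neither genotype. The knockout call was lost in 4 of the 6 fits that left out 1 library, those without CTL-AcPbKO replicate 3 or 5 or SD-AcPbKO replicate 2 or 4, with adjusted p up to 0.147 and a log2FC from 0.43 to 0.73 over the 6 fits.

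Fosl2, which encodes the Fos-related antigen Fra-2, is less transient than Fos. It had counts of 1954.5, 2197.3 and 2568.2 in CTL-WT, 2068.3, 2384.3 and 2722.2 in SD-WT, 1933.4, 1597.9 and 2019.1 in CTL-AcPbKO and 2518.2, 2267.4 and 2605.8 in SD-AcPbKO. The wild-type groups overlapped through most of their range, and the knockout groups did not overlap. Fosl2 was upregulated by SD in knockout mice (log2FC 0.42, SE 0.10, adjusted p = 0.0132) and differed by 0.09 (SE 0.11, adjusted p = 0.598) in wild-type mice. The difference between the genotypes in this effect was 0.32 (95% interval -0.04 to 0.69, limma interaction, adjusted p = 0.986). The knockout call of Fosl2 was kept in 4 of the 6 fits that left out 1 library, with a log2FC of 0.32 to 0.49. It was lost without SD-AcPbKO replicate 2 (0.40, adjusted p = 0.0628) and without SD-AcPbKO replicate 4, the library with choroid plexus markers (0.38, adjusted p = 0.0550). Without the controls with Xist reads it was 0.35 (adjusted p = 0.204).

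Fosl1, which encodes Fra-1, passed the test in wild-type mice, where its log2FC was 1.35 (SE 0.44, limma, adjusted p = 0.0469) on the log2(normalized count + 1) scale. Its counts were 3.8, 5.6 and 1.1 in CTL-WT and 10.1, 10.8 and 7.4 in SD-WT. In the knockout groups they were 1.3, 3.5 and 5.7 in controls and 3.1, 5.2 and 7.8 after SD (log2FC 0.56, SE 0.48, adjusted p = 0.436). The wild-type call was kept in 1 of the 6 fits that left out 1 library, the one without CTL-WT replicate 2. Over these fits the log2FC ran from 0.88, without CTL-WT replicate 3, to 1.71, with adjusted p up to 0.149 without SD-WT replicate 2. With every library thinned in 1 random draw to 26504840 reads, the wild-type log2FC was 0.42 (limma, adjusted p = 0.545). At so few reads the draw itself can move this value, and the part of depth was not tested.

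Fos was not called in either genotype. Its normalized counts were 678.5, 2328.3 and 3215.2 in CTL-WT replicates 1 to 3 and 1188.1, 1380.9 and 1905.4 in SD-WT replicates 1, 2 and 4. In CTL-AcPbKO replicates 3 to 5 they were 1231.5, 1921.1 and 2596.4, and in SD-AcPbKO replicates 2 to 4 they were 1597.5, 1479.6 and 1661.5. The libraries after SD lay inside the range of the controls in both genotypes. The log2FC of Fos was -0.23 (SE 0.45, 95% interval -1.23 to 0.76, adjusted p = 0.737) in wild-type and -0.21 (SE 0.22, 95% interval -0.72 to 0.29, adjusted p = 0.532) in knockout mice. The highest CTL-WT value was 4.74 times the lowest, a ratio exceeded by 0.0838% of 13121 genes with a mean count of at least 100, whose median ratio was 1.11. In CTL-AcPbKO the ratio was 2.11, exceeded by 1.14% of genes, and after SD it was 1.60 in wild-type mice, exceeded by 1.62% of genes, and 1.12 in knockout mice, exceeded by 55.6%. The means were 2074 ± 1287 in CTL-WT, 1491 ± 371 in SD-WT, 1916 ± 682 in CTL-AcPbKO and 1580 ± 92.3 in SD-AcPbKO (SD, n = 3).

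Junb, which encodes a Jun protein that can restrain Jun, followed the same libraries. Its counts were 1441.8, 3283.2 and 3797.5 in CTL-WT and 1906.5, 1751.1 and 1772.1 in SD-WT. They were 2067.7, 3384.8 and 3721.2 in CTL-AcPbKO and 1980.8, 1742.0 and 1950.2 in SD-AcPbKO. In both genotypes the values after SD were close together, while the lowest control stood far from the others. The ratio of highest to lowest was 2.63 in CTL-WT and 1.80 in CTL-AcPbKO, against 1.09 and 1.14 after SD. Of 13121 genes, 0.244% had a larger ratio in CTL-WT, 2.13% in CTL-AcPbKO, 68.8% in SD-WT and 49.7% in SD-AcPbKO. The log2FC of Junb in wild-type mice was -0.53 (SE 0.28, adjusted p = 0.189).

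The lowest control of Fos, of Fosb and of Junb was the one without Xist reads in each genotype, CTL-WT replicate 1 and CTL-AcPbKO replicate 3. The mean Fos count of the 2 controls with Xist reads was 4.09 times that of the control without them in CTL-WT and 1.83 times in CTL-AcPbKO, and for Junb the ratios were 2.46 and 1.72. For Jund they were 0.870 and 0.999. The sign of the SD effect on Fos in both genotypes, and on Junb in wild-type mice, changed with the treatment of these libraries. For Junb in knockout mice it turned only with a term for the Xist libraries, to 0.04. Without CTL-WT replicate 1, Fos (-0.90, adjusted p = 0.0118) and Junb (-0.97, adjusted p = 0.000377) were below the controls in wild-type mice. Without CTL-AcPbKO replicate 3, Fos was at -0.50 (adjusted p = 0.0191) and Junb at -0.91 (adjusted p = 0.000683) in knockout mice. With a term for the Xist libraries, Fos was at 0.72 (adjusted p = 0.0886) in wild-type and 0.74 (adjusted p = 0.0711) in knockout mice, and Junb at 0.16 (adjusted p = 0.413) and 0.04 (adjusted p = 0.849). With those 4 libraries left out, which leaves 1 control in each genotype that is assumed to vary like the other groups, Fos was at 1.11 (adjusted p = 0.0675) and 0.36 (adjusted p = 0.379), and Junb at 0.33 (adjusted p = 0.102) and -0.13 (adjusted p = 0.398). The Xist reads and any other difference between these controls cannot be told apart, and CTL-WT replicate 1 also had the highest striatal marker sum, 284 CPM against 156 to 247 in the other 11 libraries. The same controls had the 2 highest oligodendrocyte marker sums of the 12 libraries, 2428 CPM in CTL-WT replicate 1, against 2144 and 2001 in the other CTL-WT libraries, and 2328 CPM in CTL-AcPbKO replicate 3, against 995 and 1343. The part of these cell types in the result was not tested.

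**Figure D2:**
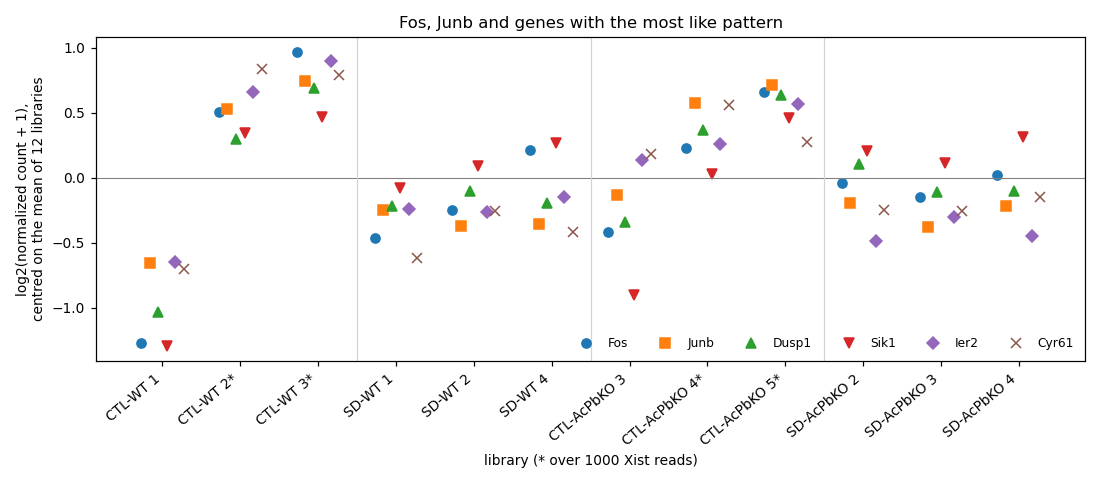
Log2 of normalized count + 1, centred on each gene's mean over 12 libraries (y axis), for Fos, Junb and the genes that varied most like them, in each library (x axis, asterisks mark over 1000 Xist reads). The 6 genes are lowest in CTL-WT replicate 1 and high in CTL-WT replicates 2 and 3, and after SD they keep to a narrower band.

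The genes with the pattern most like that of Fos, by the root-mean-square difference of centred log2 values over 12 libraries and 13120 other genes, were Dusp1 (0.203), Sik1 (0.300) and Junb (0.311), while the values of Fos itself had a root-mean-square of 0.565. Those most like Junb were Ier2 (0.191), Cyr61 (0.217) and Dusp1 (0.218). Dusp1 had counts of 869.6, 2183.2 and 2867.7 in CTL-WT, 1525.1, 1655.6 and 1551.4 in SD-WT, 1406.3, 2300.7 and 2769.0 in CTL-AcPbKO and 1916.5, 1645.8 and 1660.1 in SD-AcPbKO. As for Fos, the control without Xist reads was lowest in each genotype, whereas after SD the highest library was replicate 2 for Dusp1 and replicate 4 for Fos in both genotypes. Jun was most like Ybx2 (0.148), Bambi (0.150) and Rps6kl1 (0.163), a different set of genes from those named for Fos and Junb. These are descriptions over libraries that share depth and group, with no test.

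Between the genotypes, 0 of the 7 members passed the test in undisturbed mice, where 0.0197% of 20273 genes did. At an unadjusted p under 0.05 there were 3 members in limma, Fosl2, Jun and Jund, against 8.53% of all genes, and 0 members were called by edgeR or DESeq2. Jund was higher in each CTL-AcPbKO library than in each CTL-WT library, with a log2 difference of 0.26 (95% interval 0.11 to 0.41, adjusted p = 0.373). It was the 1 member of 7 without overlap, against 14.4% of all genes. Jun differed by 0.29 (95% interval 0.02 to 0.57, adjusted p = 0.553) and Fosl2 by -0.27 (95% interval -0.53 to -0.02, adjusted p = 0.552).

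After SD, 0 of the 7 members differed between the genotypes in limma, where 0.0145% of 20621 genes did, and 1 had an unadjusted p under 0.05, as did 6.13% of all genes. This was Jun, which lay at 2729.6, 2084.2 and 2521.3 in SD-AcPbKO and at 1849.9, 1685.5 and 1555.9 in SD-WT. The groups did not overlap for Jun, as for 11.4% of all genes, and the log2 difference was 0.52 (95% interval 0.29 to 0.75, limma, adjusted p = 0.224). DESeq2 on the recovered reads called Jun, with an adjusted p of 0.00223, and edgeR did not, with 0.147. The other 6 members differed by -0.79 (Fosl1) to 0.17 (Fosb) on the log2 scale.

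The effect of SD was not shown to differ between wild-type and knockout mice for any member. In the limma interaction, 0 of the 7 members passed at an adjusted or an unadjusted p under 0.05, where 0% and 4% of 20978 genes did, and edgeR and DESeq2 called 0 members. The intervals were wide for Fos (-1.32 to 1.36), Junb (-1.002 to 0.77) and Fosl1 (-2.25 to 0.69), and narrower for Jund (-0.41 to 0.07), Jun (-0.17 to 0.62) and Fosb (-0.43 to 0.69).

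**Figure D3:**
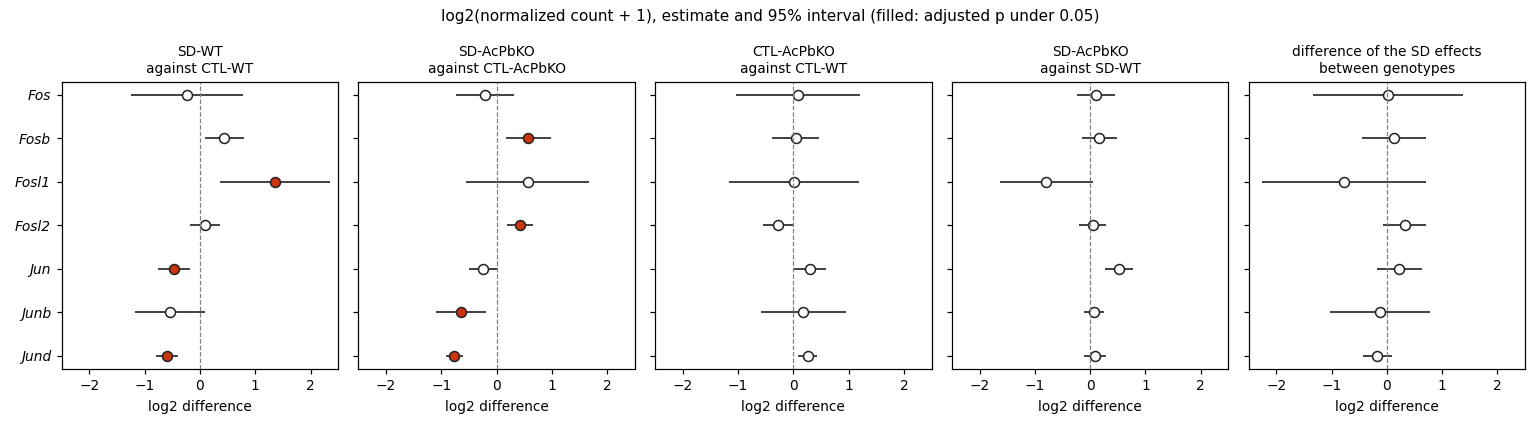
Log2 difference (x axis) of each Fos and Jun gene (y axis) in the 4 group comparisons and in the interaction, with the limma 95% interval as a line; filled points have an adjusted p under 0.05. Jund is filled in both SD comparisons, and no point is filled between the genotypes or in the interaction.

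**Figure D4:**
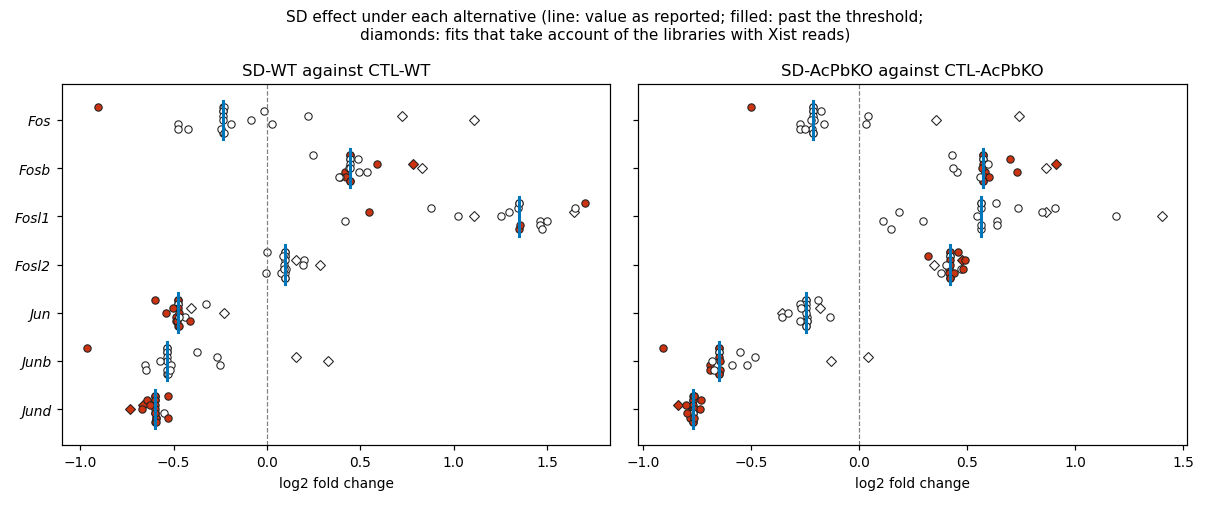
Log2FC after SD (x axis) of each Fos and Jun gene (y axis) under each alternative setting of the analysis, wild-type on the left and knockout on the right. The line is the value as reported, filled points passed the threshold, and diamonds are the fits that take account of the libraries with Xist reads. Jund stays between -0.84 and -0.53, while Fos runs from -0.90 to 1.11.

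The genes around AP-1 were read from 6 lists, with percentages of all genes tested of 13.2% called higher and 12.2% called lower in wild-type and of 14.1% and 13.3% in knockout mice. Of 16 factors that act on the Fos and Jun promoters, 10 were upregulated and 0 downregulated by SD in wild-type mice, and 8 were upregulated and 1 downregulated in knockout mice. The median log2FC of this list was 0.28 and 0.25, against 0.00 and 0.01 over all genes. Elk3 and Elk1, partners of SRF, had a log2FC of 0.62 (adjusted p = 0.000878) and 0.36 (adjusted p = 0.00513) in wild-type and of 0.44 (adjusted p = 0.00525) and 0.40 (adjusted p = 0.00587) in knockout mice. Creb1, Crebbp, Ep300 and Mef2d were called higher in both genotypes as well, Srf in wild-type and Crem in knockout mice, and Crtc1 was the 1 gene called lower. The count called higher was 3 without SD-WT replicate 1 or 2 and 5 without CTL-WT replicate 2, and 5 in knockout mice without CTL-AcPbKO replicate 4 or 5 or SD-AcPbKO replicate 2 or 4. Without the controls with Xist reads it was 1 in wild-type and 2 in knockout mice, at medians of 0.24 and 0.23.

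Of 12 bZIP partners, 1 was higher and 1 lower in wild-type and 3 were higher and 1 lower in knockout mice. The small MAF gene Maff was upregulated in both (0.86, adjusted p = 0.00752, and 0.96, adjusted p = 0.00906), from 40.5, 42.3 and 51.4 in CTL-WT to 78.2, 83.0 and 82.9 in SD-WT. Batf3, at few counts, was downregulated in both (-1.20, adjusted p = 0.0209, and -1.09, adjusted p = 0.0361). Atf7 passed in knockout mice (0.29, adjusted p = 0.0236). The knockout count of partners called higher was 1 without CTL-AcPbKO replicate 4 or SD-AcPbKO replicate 2 or 3, and the wild-type count was 2 without CTL-WT replicate 3 and 3 without SD-WT replicate 4, with 2 lower. The call of Batf3 was lost in knockout mice without any 1 library other than CTL-AcPbKO replicate 3, in wild-type mice without CTL-WT replicate 2 or SD-WT replicate 1 or 2, and in both without the controls with Xist reads.

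The JNK and p38 kinases and scaffolds, which lead to phosphorylation of Jun and of promoter-bound factors, showed 0 higher and 3 lower of 15 in wild-type and 1 higher and 3 lower in knockout mice. Rps6ka4, a nuclear kinase activated by p38, was downregulated in both (-0.64, adjusted p = 0.00176, and -0.67, adjusted p = 0.00166), as was the JNK scaffold Mapk8ip2 (-0.29, adjusted p = 0.00772, and -0.27, adjusted p = 0.00918). The 1 kinase gene higher in knockout mice was lost without CTL-AcPbKO replicate 4 or 5 or SD-AcPbKO replicate 2 or 4, and 2 were higher in wild-type mice without SD-WT replicate 4. Of 9 genes for the turnover of Fos and Jun mRNA and protein, 1 was higher and 1 lower in wild-type and 2 were higher and 3 lower in knockout mice. Rfwd2, also named Cop1, a ubiquitin ligase for Jun, was upregulated from 2960.8, 2669.1 and 3096.8 in CTL-WT to 4241.7, 4201.7 and 4591.3 in SD-WT (log2FC 0.58, adjusted p = 0.000676) and by 0.73 (adjusted p = 0.000506) in knockout mice. Usp28, a deubiquitinase known to stabilise Jun, had a log2FC of -0.43 (adjusted p = 0.00599) and -0.29 (adjusted p = 0.0121). In knockout mice the turnover genes numbered 1 higher and 1 lower without any 1 control, 1 higher and 2 lower without SD-AcPbKO replicate 2, 3 higher and 1 lower without replicate 3, and 1 higher and 0 lower without replicate 4; in wild-type mice 2 were higher without SD-WT replicate 4.

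Other immediate early genes moved in both directions, with 4 higher and 4 lower of 21 in wild-type and 4 higher and 5 lower in knockout mice. Egr3 was upregulated, with a log2FC of 1.02 (adjusted p = 0.000293) in wild-type and 0.88 (adjusted p = 0.00107) in knockout mice. Homer1, which also gives a short activity-induced form that the count does not tell apart, had a log2FC of 0.59 (adjusted p = 0.00508) and 0.69 (adjusted p = 0.000792). Egr4 was downregulated, at -0.92 (adjusted p = 0.00254) and -1.21 (adjusted p = 0.000614). This list changed, as Fos did, when the fit had a term for the controls with Xist reads. With the term, 11 genes were higher in each genotype, and 3 were lower in wild-type and 2 in knockout mice. The median log2FC was then 0.58 and 0.53, where it had been 0.23 and 0.13. Single controls moved the counts too, to 3 higher and 7 lower without CTL-WT replicate 1, to 2 higher and 3 lower without CTL-WT replicate 2, to 8 higher and 3 lower without CTL-WT replicate 3 and to 7 higher and 6 lower without CTL-AcPbKO replicate 5. Among the genes that passed with the term and not without it were Arc (1.92, adjusted p = 0.000593, and 2.00, adjusted p = 0.000255), Egr1 (0.99, adjusted p = 0.00495, and 0.86, adjusted p = 0.00702) and Nr4a1 (0.97, adjusted p = 0.00306, and 0.79, adjusted p = 0.00561), named after their values were seen. The term assumes the same difference in both genotypes and rests on controls alone, since 0 libraries after SD had Xist reads. With it, the SD effect is read mainly against the controls without Xist reads, CTL-WT replicate 1 and CTL-AcPbKO replicate 3. The Xist reads and any other difference between the controls, such as their oligodendrocyte marker sums, cannot be told apart. The values of Arc, Egr1 and Nr4a1 with the term therefore do not separate SD from such differences.

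Of 11 genes described as AP-1 targets, 5 were higher and 0 lower in wild-type and 2 were higher and 0 lower in knockout mice. Timp1, an inhibitor of matrix metalloproteinases, had a log2FC of 1.07 (adjusted p = 0.0157) and 1.84 (adjusted p = 0.000716), with counts of at most 62.6 in CTL-WT against 94.4, 90.5 and 160.7 in SD-WT. Hmox1 passed in wild-type mice (0.44, adjusted p = 0.0176) and Ccnd1 in both (0.44, adjusted p = 0.0268, and 0.45, adjusted p = 0.00506). The wild-type count was 1 without CTL-WT replicate 2, 2 without SD-WT replicate 1, 3 without CTL-WT replicate 3 or SD-WT replicate 2, and 0 without the controls with Xist reads. The test used for each of these genes was limma over all genes, and 0 genes of the 6 lists passed in either genotype comparison.

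**Figure D5:**
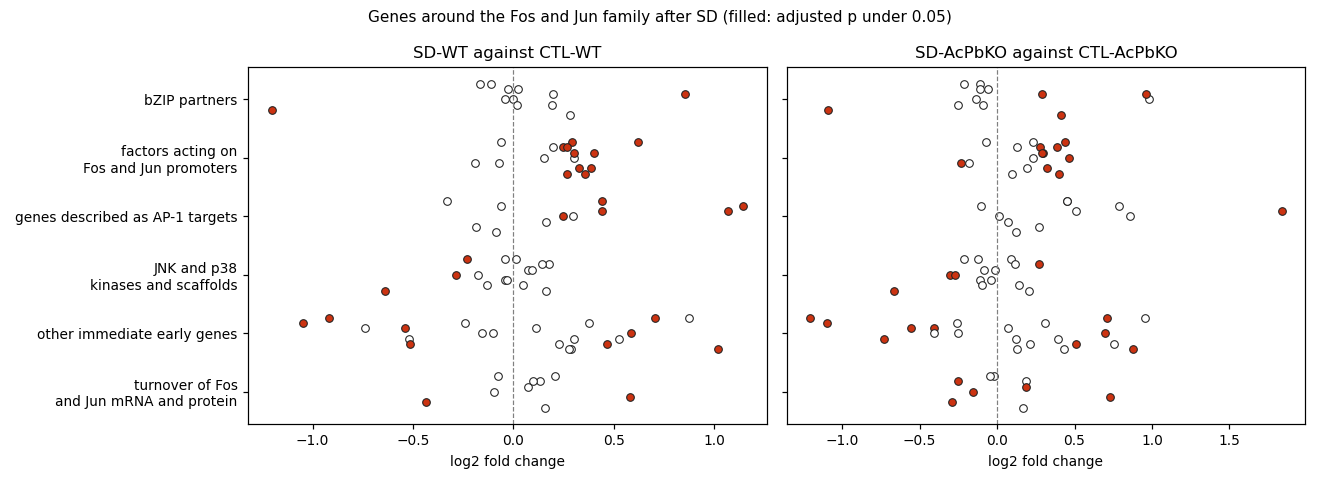
Log2FC after SD (x axis) of every tested gene of the 6 lists (y axis), 1 point per gene, wild-type on the left and knockout on the right; filled points have an adjusted p under 0.05. Most filled points of the promoter factor list lie to the right of 0, and the other immediate early genes have filled points on both sides.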

How the data were processed

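The authors aligned paired reads from a stranded mRNA kit to mm10 with HISAT2 (version 2.2.1), counted reads per gene (featureCounts per the labels' processing notes) and compared groups in DESeq2. The deposited signal, in 5 tables, is each gene's reads scaled by the DESeq2 size factor of the library. The deposited log2 fold changes, their standard errors, the Wald score and the authors' p-value columns were not used. The authors' mean over the libraries of a table was not used either. Dividing by the value of 1 read gave whole reads, within 0.01, for 100.0% of 732630 values, and 0 of 439578 repeated counts differed between tables. Of 16 labelled samples, 4 are not analysed here. No 2 libraries of a group were copies.

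Groups were compared within their table by limma (version 3.58.1, R 4.3.3) with a variance trend, after adding a pseudocount of 1 and taking log2 of all genes with a read, with Benjamini-Hochberg adjustment and a threshold of 0.05. The interaction used 12 libraries normalized together. Replicates are separately labelled samples, and the labels do not tie each to 1 mouse beyond the group sizes, so p-values measure the spread between these samples. The plan named edgeR only for whole counts. Alternatives were edgeR (version 4.0.16) and DESeq2 (version 1.42.0) on recovered reads, other pseudocounts (0.1 and 10), scalings, filters and thresholds, thinning (seed 1), the replicate number as a block, a term for Xist, and each library left out. The fit without the Xist libraries was added after seeing the data. The main limma fit, edgeR and DESeq2 were run on simulated reads with known changes and the same spread setting for all genes. The other alternative settings were not.

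The members and gene lists were chosen with earlier results of these data known. Named genes are the 7 members, the at most 2 genes of each list with the smallest adjusted p in each SD comparison, and the 3 genes most like Fos, Jun and Junb among those with a mean of at least 100. Other genes are named after their values were seen. Positions and exon lengths are from GENCODE M21 on GRCm38, promoters from RefSeq. Python 3.11.15, pandas 2.3.3, NumPy 2.4.6 and matplotlib 3.10.9 were used for the rest.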

Additional observations from a re-analysis of the deposited data

How the results depend on the processing

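Jund stayed lower after SD in both genotypes under each of the 20 alternatives and past the threshold in 19 of them, the exception being the replicate block. The block left 1 residual degree of freedom in each SD comparison, against 4 in the main fit, so it had little power to call a gene. The other calls were less stable. In wild-type mice the count of members called was 3, and it was 1 at an adjusted p under 0.01, 1 with no variance trend, 0 with the block and 1 without the Xist libraries. In knockout mice the count was 4, and it was 1, 1, 0 and 1 in the same settings. Leaving out 1 library gave 1 to 4 members in each genotype. Between SD-AcPbKO and SD-WT, DESeq2 called 1 member, Jun. The causes were not tested.

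The direction turned as follows. With a term for Xist, the SD effect was 0.72 and 0.74 for Fos and 0.16 and 0.0397 for Junb, in wild-type and knockout mice. Without the Xist libraries Fos was at 1.11 and 0.36 and Junb at 0.33 in wild-type mice, Fosl1 was at -1.06 between the control genotypes, and the interaction was -0.75 for Fos, 0.29 for Fosl1 and -0.13 for Jun. Between the control genotypes Fos was at -0.12 in edgeR and -0.11 in DESeq2, and Fosl1 at -0.0012 with a pseudocount of 10. With 1 library left out the values ran as follows. The wild-type SD effect ran from -0.90 to 0.22 for Fos and from -0.0036 to 0.20 for Fosl2, and the knockout effect of Fos from -0.50 to 0.0394. Between control genotypes Fos ran from -0.58 to 0.54, Fosb from -0.15 to 0.18, Fosl1 from -0.42 to 0.39 and Junb from -0.25 to 0.44. Between genotypes after SD Fos ran from -0.0414 to 0.30 and Fosl2 from -0.0521 to 0.15. The interaction ran from -0.43 to 0.69 for Fos, from -0.018 to 0.32 for Fosb and from -0.38 to 0.31 for Junb.

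Whether the replicate numbers pair the libraries was not established. The correlations of deviations of 10 same-numbered pairs ran from -0.60 to 0.36, and 4 were over 0.1. Between SD-WT and SD-AcPbKO, replicate 2 was at 0.29 and replicate 4 at 0.36. Between controls and SD of the same genotype they ran from -0.096 to 0.076. Pairs with different numbers were not compared. With the replicate block, Fos was at 0.028 in wild-type and 0.029 in knockout mice, the Junb interaction was 0.095, and 0 genes were called in either SD comparison. No paired analysis was possible between CTL-AcPbKO and CTL-WT, because they share 1 number. Fosl1 had no value with a mean of at least 10 and no adjusted p from DESeq2 in the SD comparisons. Over all genes 5186 were called after SD in wild-type and 5633 in knockout mice, against 2360 and 2656 at an adjusted p under 0.01, 2536 and 3608 with no variance trend, and 680 and 2080 without the Xist libraries. The wild-type count was 2699 to 2941 without CTL-WT replicate 2 or SD-WT replicate 1 or 2, and the knockout count 3393 to 3575 without CTL-AcPbKO replicate 4 or SD-AcPbKO replicate 2 or 4. Between genotypes 4 genes were called in controls and 3 after SD, against 93 and 97 in DESeq2 and, in controls, 168 without CTL-AcPbKO replicate 3, and the interaction called 0 genes, 1 in DESeq2, 2 with no variance trend and 9 without CTL-AcPbKO replicate 3. Fosl1, at 1 to 15 reads, is the member with the fewest reads.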
